A study of Rattus norvegicus with 18 samples.

Results

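Of the 30735 genes in the count file, 10 genes of the axon were examined, picked by symbol. Of these, 6 code for the structure of the neuron: Nefl, Nefm, Nefh, Map2, Mapt and Tubb3. The other 4, Stmn2, Gap43, Sox11 and Sprr1a, are known for axon growth and regeneration. All 10 were present once in the file and passed the filter on low counts, as did 18444 genes in all. Libraries were made from the cerebral cortex of 18 Sprague-Dawley rats aged 8 to 10 weeks, with 1 library per rat and 6 rats in each of 3 groups. In both hemorrhage groups, SAH 1d and SAH 7d, subarachnoid hemorrhage (SAH) was produced by piercing an artery from inside with a filament, and the cortex was taken 1 day or 7 days later. Rats of the sham group underwent that operation with no piercing of the artery. The methods name the cortex of the operated side and the labels name bilateral cortex and mice, while the genes carry rat identifiers, and no source used here states the sex. The libraries hold 2.73e+07 to 3.83e+07 counts, and all 9 neuron markers checked, among them Rbfox3, Snap25 and Slc17a7, were detected in every group.

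Neurofilaments are rope-like polymers that fill the axon and set its calibre. They are built from the light, medium and heavy chains, the products of Nefl, Nefm and Nefh. Microtubules, made of tubulins such as the neuronal beta-tubulin of Tubb3, run beside them and are bound by MAP2 in dendrites and by tau, the product of Mapt, in axons. Neurofilament light chain and tau that leak from injured axons are followed in blood and cerebrospinal fluid as markers of brain injury. A cut peripheral axon switches on a growth program in its neuron, of which GAP-43 at the growth cone, the tubulin-binding stathmin-2 (Stmn2), the transcription factor SOX11 and the small proline-rich protein SPRR1A are classic parts.

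Levels differ widely between the 10 genes. By FPKM, the deposited measure that is scaled to transcript length, Nefl was the highest in the sham group with a median of 290.1, ahead of Stmn2 with 255.5, Tubb3 with 211 and Gap43 with 206. Map2 followed with a median FPKM of 139.8, then Mapt with 86.5, Nefm with 70.9 and Nefh with 27.2. Sox11 and Sprr1a were near the floor of the assay, with a median FPKM of 1.13 and 0.985. Neighbours in this order overlapped between Nefl and Stmn2, Stmn2 and Tubb3, Tubb3 and Gap43, Mapt and Nefm, and Sox11 and Sprr1a, and Tubb3 was above Gap43 in 3 of 6 sham libraries. The counts behind these values are large for 8 of the genes, where no library had fewer than 1188 counts, and small for the others. Sox11 had 49 to 106 counts per sham library, and Sprr1a had 18 to 57.

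At 1 day after SAH, 7 of the 8 abundant members were lower together, and the growth genes Gap43 and Stmn2 were lower by about as much as Nefl and Tubb3. The exception was Nefh. Below, levels are in CPM, the counts-per-million scale of a library after TMM scaling, and log2 fold changes come with their standard error. A gene is said to have risen or fallen where its Benjamini-Hochberg adjusted p in edgeR's two-sided quasi-likelihood test, over all 18444 genes, was under 0.05. Between the SAH 1d group and the sham group, 8 of the 10 members changed, against 25.4% of all genes tested. Of these, 7 fell, against 10.5% of all genes, and 1 rose, against 14.9%. The members were chosen with earlier results of these data known, so these shares are a description. The median log2 fold change was -0.57 over the 6 structural genes and 0.01 over all genes tested. Without SAH 1d-3, a library described below, 7 members changed, and all of them fell, against 13.0% of all genes. In bulk cortex, fewer neurons and less RNA per neuron cannot be told apart.

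Nefl (ENSRNOG00000013658), the light chain, on which the other chains assemble, had a lowest, median and highest level of 773, 1049 and 1111 CPM in the sham group and of 537, 637 and 739.5 CPM in the SAH 1d group. Every SAH 1d library was below every sham library. Its log2 fold change was -0.65 ± 0.10, which is 0.637 of the sham level, with an adjusted p of 0.00107 (edgeR). Nefm (ENSRNOG00000013916), the medium chain, had 163, 231 and 310.0 CPM in the sham group and 122, 159 and 178 CPM in the SAH 1d group. Here 4 of 6 SAH 1d libraries lay below all sham libraries, and the lowest sham library, sham-1, lay within the SAH 1d range. Nefm fell by 0.64 on the log2 scale (SE 0.15, edgeR adjusted p = 0.00889).

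Nefh (ENSRNOG00000008716), the heavy chain, did not follow the other chains. Its lowest, median and highest levels were 82.6, 111 and 167 CPM in the sham group and 68.5, 119.6 and 203 CPM in the SAH 1d group. The sham libraries lay inside the span of the SAH 1d libraries, with 3 of 6 SAH 1d libraries above the sham median. The log2 fold change was 0.06 ± 0.23 with an edgeR adjusted p of 0.874.

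Tubb3 (ENSRNOG00000017209), the tubulin isotype used as a marker of neurons, showed the lowest adjusted p of the 10 genes. It had 310.2, 401 and 475 CPM in the sham group and 214, 249.7 and 257 CPM in the SAH 1d group, with no overlap. Its log2 fold change was -0.69 ± 0.10, or 0.620 of the sham level, with an edgeR adjusted p of 0.000526. The genes of both microtubule-binding proteins fell less far. Mapt (ENSRNOG00000005133) had 361, 446 and 458 CPM in the sham group and 227, 322 and 338 CPM in the SAH 1d group, again with no overlap, and fell by 0.50 on the log2 scale (SE 0.099, edgeR adjusted p = 0.00352). Map2 (ENSRNOG00000011841) had 1151, 1334 and 1508 CPM in the sham group and 796, 1064 and 1195.5 CPM in the SAH 1d group. In 5 of 6 SAH 1d libraries Map2 lay below all sham libraries, and it fell by 0.39 (SE 0.11, edgeR adjusted p = 0.0181).

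Gap43 (ENSRNOG00000001528), a membrane protein of growth cones and presynaptic endings, had 304, 336 and 465 CPM in the sham group and 162, 225 and 252 CPM in the SAH 1d group. The groups did not overlap, and sham-5 alone made the upper end of the sham range. Gap43 fell by 0.69 on the log2 scale (SE 0.13, edgeR adjusted p = 0.00229), to 0.621 of the sham level. Stmn2 (ENSRNOG00000011705), which keeps microtubule ends dynamic in growing axons, had 442, 563 and 676 CPM in the sham group and 334, 380.1 and 405 CPM in the SAH 1d group. It did not overlap either, and it fell by 0.60 (SE 0.096, edgeR adjusted p = 0.00106). Nefl, Mapt, Tubb3, Stmn2 and Gap43 were thus the 5 members with all SAH 1d libraries below all sham libraries, a pattern found in 5.41% of the genes tested. With each of the 12 libraries left out in turn, each of the 7 genes that fell kept an adjusted p under 0.05, the highest being 0.0423 for Map2. When all 18 libraries shared 1 edgeR fit, Nefl (adjusted p = 0.0820), Nefm (0.140), Map2 (0.172) and Mapt (0.0605) no longer passed, with almost the same fold changes. On the FPKM scale Map2 (adjusted p = 0.0753) and Mapt (0.0636) did not pass in limma.

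**Figure D1:**
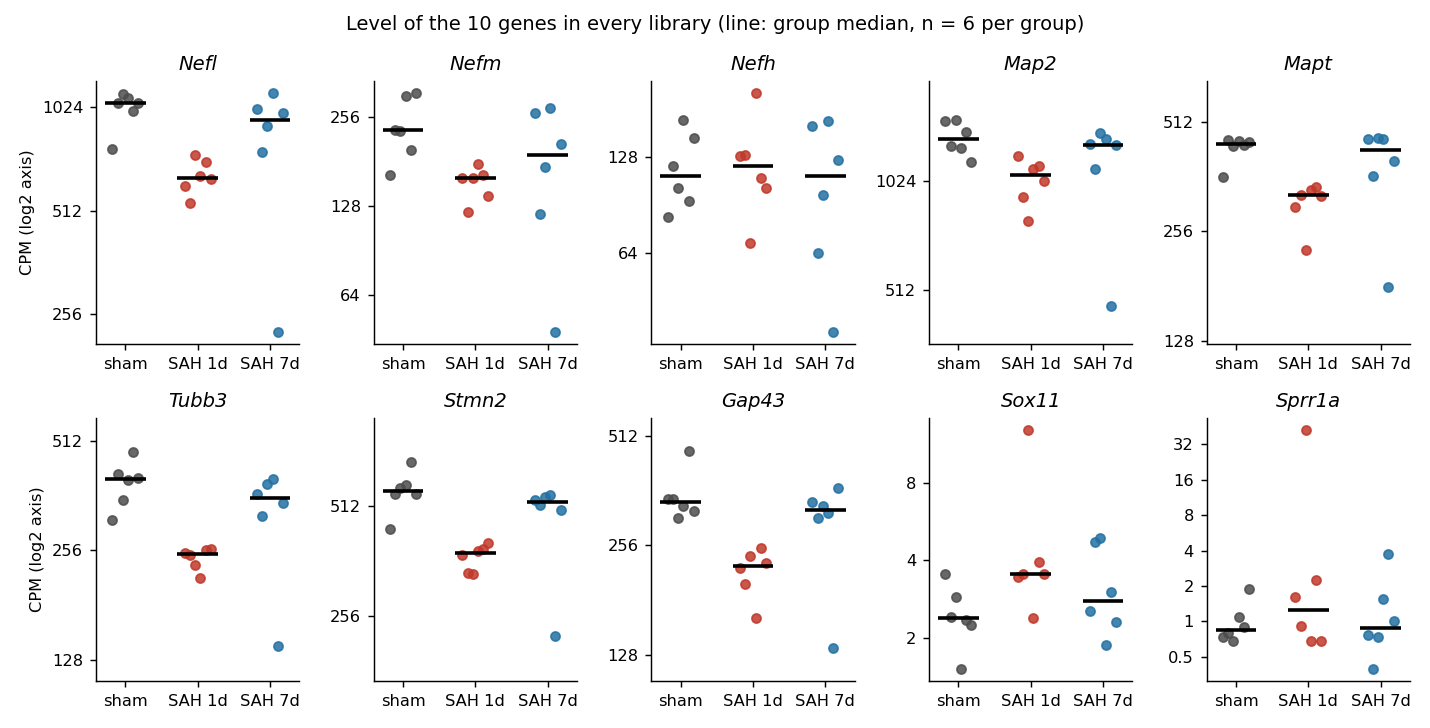
CPM of each of the 10 genes in every library, on a log2 axis with a range of its own for each gene. Each point is 1 rat, the bars are group medians, and each group has 6 libraries. For Nefl, Mapt, Tubb3, Stmn2 and Gap43 all red SAH 1d points lie below all grey sham points, and for 8 of the genes 1 blue point, SAH 7d-5, lies below the rest of its group.

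The remaining 2 genes, Sox11 and Sprr1a, had higher medians at SAH 1d than in sham, and both were highest in the library SAH 1d-3. Of the pair, Sprr1a passed the test and Sox11 did not. Sprr1a (ENSRNOG00000024028), a protein of the squamous epithelium that injured sensory neurons also make, had 0.682, 0.844 and 1.88 CPM in the sham group, against 0.677, 1.26 and 42.5 CPM at SAH 1d. The 42.5 CPM, from 1675 counts, belong to SAH 1d-3 and are 46.4 times the median of the other 5 libraries, whose highest value was 2.24 CPM. The log2 fold change was 3.01 ± 1.05 with an edgeR adjusted p of 0.0495. Leaving out SAH 1d-3 gave 0.27 (edgeR adjusted p = 0.636), and 2 of 6 SAH 1d libraries were below every sham library. The call was also lost with any 1 of the sham libraries left out (edgeR adjusted p 0.0680 to 0.0911) and in limma voom with sample quality weights, where the log2 fold change was 0.22 (adjusted p = 0.730), and DESeq2 gave Sprr1a no adjusted p. Sprr1a belongs to a family of genes with similar sequences, so its level is uncertain where reads are shared with relatives. Of 6 markers of keratinocytes and squamous epithelium, 3 were in the file, and they summed to 0.0379 to 0.429 CPM in sham libraries, with Krt5 at 0, and to 1.36 to 8.45 CPM at SAH 1d, highest in SAH 1d-3. At SAH 1d most of this sum was Sfn alone, with 1.29 to 7.86 CPM against 0.0379 to 0.363 CPM in sham. The keratins Krt5 and Krt14 did not exceed 0.0632 and 0.558 CPM at SAH 1d. Sfn was the only one of them with enough counts to be tested, and it rose. Neutrophil, endothelial and red cell markers, too, were highest in SAH 1d-3 among the SAH 1d libraries. Its neuron markers had a median ratio of 0.70 to the other 5 libraries, from 0.2465 for Camk2a to 1.59 for Gad2. The part of any of these cell types in the Sprr1a values was not tested.

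Sox11 (ENSRNOG00000030034), a transcription factor of immature and regenerating neurons, had 1.51, 2.38 and 3.53 CPM in the sham group and 2.40, 3.54 and 12.9 CPM in the SAH 1d group. All 6 SAH 1d libraries were above the sham median and 4 of 6 were above every sham library, with SAH 1d-3 at 3.65 times the median of the other 5. The log2 fold change was 1.00 ± 0.38 (edgeR adjusted p = 0.0678). Leaving out SAH 1d-3 gave 0.44 (edgeR adjusted p = 0.131). DESeq2 (adjusted p = 0.0343), voom (0.0347) and the edgeR fit without SAH 1d-4 (0.0438) put it under 0.05. The list of 9 immature neuron and subventricular zone markers had 0 genes that rose and 1 that fell, and its summed level was 132.5 to 216 CPM in the sham group and 109 to 190.0 CPM in the SAH 1d group, lowest in SAH 1d-3. The largest part of that sum was Cd24, with a median of 74.6 CPM in sham and 108.7 CPM at SAH 1d. Dcx had medians of 35.9 and 27.3 CPM. The part of immature neurons or subventricular zone cells in the Sox11 values was not tested.

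The promoters of Sprr1a and Sox11 are shown because both genes had higher medians at SAH 1d, although neither passed the edgeR test without SAH 1d-3. Nefh, whose median was also higher, had no promoter available. A further reason is that AP-1, a dimer of proteins such as JUN and ATF3, acts in the injury response of neurons. The genes Jun and Atf3 are members of the list of injury-induced genes described below. Both sequences are the 250 bases before the gene's start in RefSeq on the GRCr8 build, which is not the build of the count file, at chr2:180752626-180752875 on the minus strand for Sprr1a and chr6:49738795-49739044 on the minus strand for Sox11. Capitals mark the AP-1 motif TGANTCA, searched on both strands, where it reads the same way.
Sprr1a: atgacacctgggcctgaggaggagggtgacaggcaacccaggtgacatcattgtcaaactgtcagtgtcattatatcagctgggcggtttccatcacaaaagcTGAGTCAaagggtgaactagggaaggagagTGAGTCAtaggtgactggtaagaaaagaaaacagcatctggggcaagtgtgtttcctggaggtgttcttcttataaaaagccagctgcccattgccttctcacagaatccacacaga
Sox11: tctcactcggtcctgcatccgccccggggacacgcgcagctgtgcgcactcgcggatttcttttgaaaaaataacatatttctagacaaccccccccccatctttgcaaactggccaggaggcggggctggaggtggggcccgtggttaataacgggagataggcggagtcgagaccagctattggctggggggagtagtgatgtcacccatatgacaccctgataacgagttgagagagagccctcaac
The Sprr1a window holds 2 matches, whose first bases lie 147 and 117 bases before the start, and also the letters TATAAA. Sox11 holds no AP-1 match. Neither do Tubb3 and Map2, the only other members with a promoter in the table. Of 33469 promoters of this length, 6.34% held the motif at least once, 0.311% held it at least 2 times, and 12.9% held TATAAA on either strand. A match is a run of letters and was not measured as a binding site. Whether AP-1 has a part in the levels of Sprr1a was not tested.

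The structural and the growth genes were set against each other in each library, as the mean log2 CPM of the 4 growth and regeneration genes minus that of the 6 structural genes. This difference was -4.02 ± 0.20 (SD, n = 6) in sham, -3.41 ± 0.88 at SAH 1d and -3.69 ± 0.67 at SAH 7d. SAH 1d was thus higher than sham by 0.61, and by 0.26 when SAH 1d-3, the library with a difference of -1.70, was left out. SAH 7d was higher than sham by 0.33, and by 0.07 when SAH 7d-5 was left out. Without Sprr1a in the mean, SAH 1d was higher than sham by 0.30. The growth genes did not share 1 direction. Gap43 and Stmn2 fell by about as much as Nefl and Tubb3, while Sprr1a and Sox11 had higher medians than in sham.

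**Figure D2:**
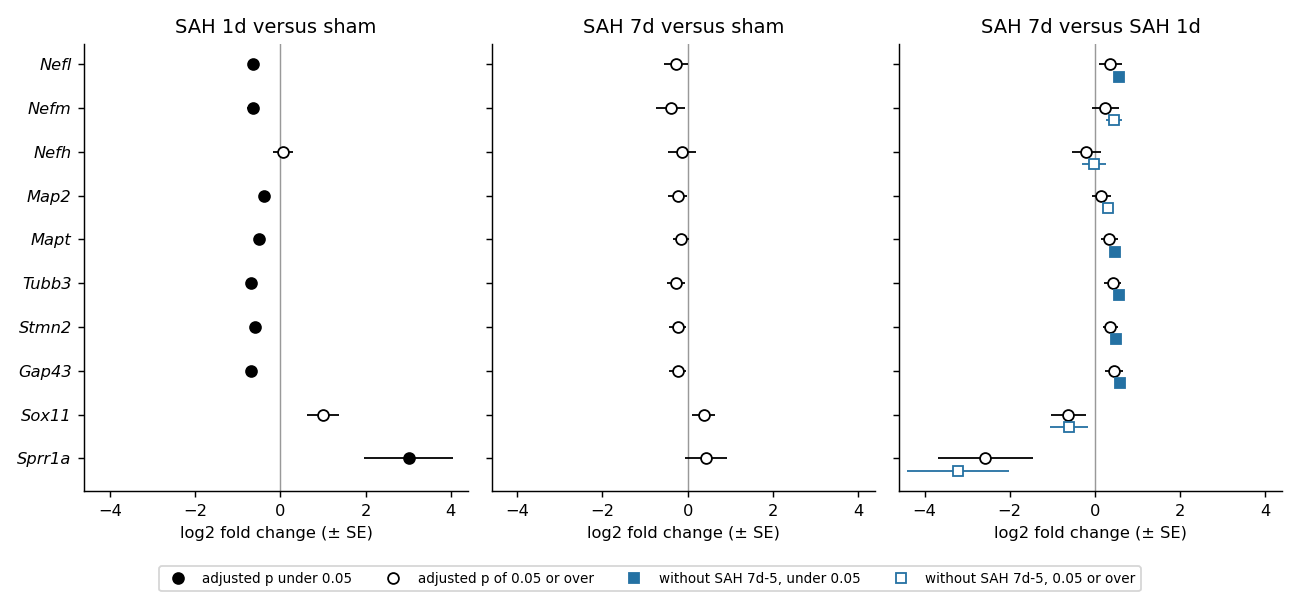
Log2 fold change ± SE of each of the 10 genes in the 3 comparisons, from edgeR. Filled symbols have an adjusted p under 0.05, and blue squares give SAH 7d versus SAH 1d without SAH 7d-5. At SAH 1d the abundant members other than Nefh cluster between -0.69 and -0.39, and Sprr1a at 3.01 has the widest error.

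The fall at SAH 1d was seen beside a fall of neuron markers. Of the 9 neuron markers, 7 fell, against 10.5% of all genes, and 0 rose, with a median log2 fold change of -0.49. Their summed level was 6955 to 10598 CPM in the sham group, with none of the markers at 0, and 5287 to 6892 CPM in the SAH 1d group, and those ranges did not overlap. Markers of other cells and regions moved as well. The 6 astrocyte markers summed to 2947 to 4828 CPM in sham and to 5198 to 6232 CPM at SAH 1d, with no overlap, although 1 of them rose and 2 fell, and Gfap alone went from a median of 339.6 to 2826 CPM. The 5 striatum markers summed to 189 to 1063 CPM in sham and to 98.9 to 532 CPM at SAH 1d, with 1 that fell, a median log2 fold change of -1.24 and overlapping ranges. The 4 choroid plexus markers summed to 1.72 to 61.4 CPM in sham and to 1.89 to 973 CPM at SAH 1d, highest in SAH 1d-6. The log2 CPM of each member was also taken relative to the mean log2 CPM of the 9 neuron markers. The difference of SAH 1d from sham was then -0.12 for Nefl, -0.09 for Nefm, -0.15 for Tubb3, -0.07 for Stmn2 and -0.16 for Gap43. It was 0.02 for Mapt, 0.13 for Map2, 0.56 for Nefh, 1.30 for Sox11 and 1.58 for Sprr1a. On this scale the SAH 1d and sham groups overlapped for all 10 genes. For Nefl, SAH 1d had a median of 0.40 and a range of 0.31 to 1.15, against 0.51 to 0.80 in sham. The 1.15 was SAH 1d-3, whose mean of the neuron markers, 8.38, was the lowest at SAH 1d, where the median was 8.87. All of these differences include SAH 1d-3. These relative levels were chosen after the values had been seen and are given without a test. What part a change in the content of neurons, other cells or regions has in the fall was not tested.

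**Figure D3:**
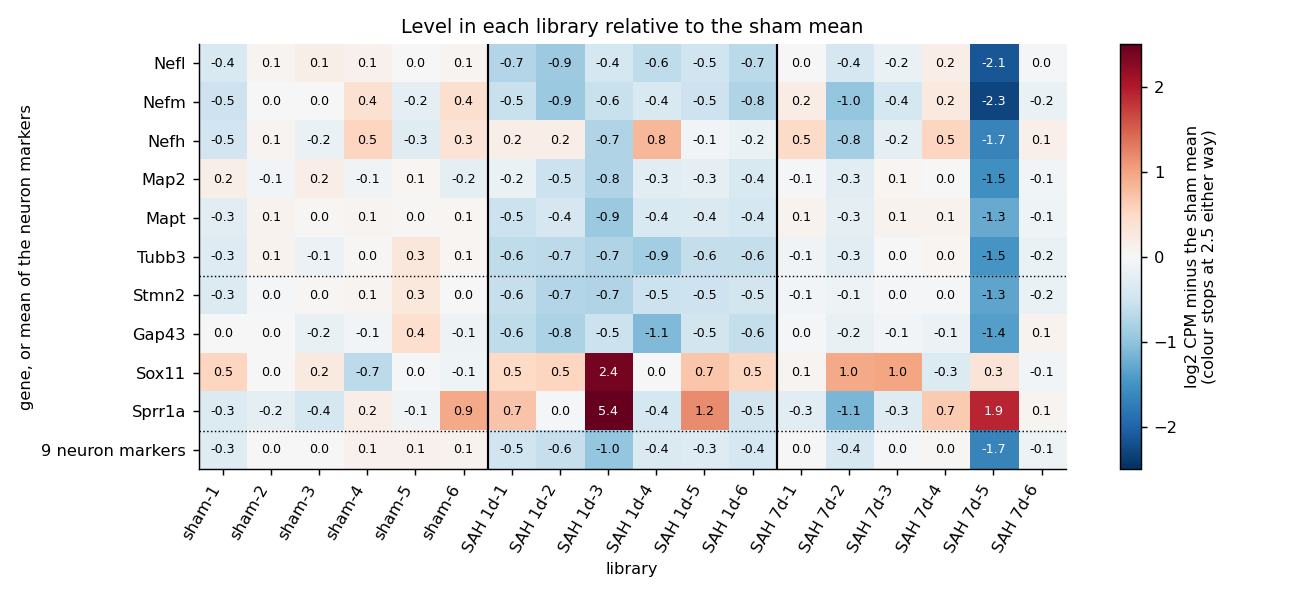
Log2 CPM of each gene in each of the 18 libraries minus the sham mean of that gene, with the mean of the 9 neuron markers in the bottom row. Red is higher and blue is lower than the sham mean, and the numbers in the cells are the differences. The SAH 1d block is blue for the abundant members except Nefh, SAH 1d-3 is red for Sox11 and Sprr1a, and SAH 7d-5 is the bluest column.

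Because Nefh departed from the other chains, the ratio of the chains was formed in each library from FPKM values, a choice made after these values had been seen. The ratio of Nefh to Nefl had a lowest, median and highest value of 0.0813, 0.0977 and 0.136 in the sham group and of 0.0818, 0.166 and 0.279 in the SAH 1d group. In 5 of 6 SAH 1d libraries it was above every sham library, the exception being SAH 1d-3. The mean log2 ratio was higher by 0.68 at SAH 1d. The ratio of Nefm to Nefl had a median of 0.239 in sham and 0.254 at SAH 1d, with a mean log2 difference of 0.03. Since these ratios were formed for what had been seen in Nefh, they are a description. Exact permutation tests of the mean log2 ratios were run, 6 in all, and none had an adjusted p under 0.05. For Nefh to Nefl at SAH 1d against sham, the exact p was 0.0368 and the adjusted p was 0.221. As the ratio was picked from the same values, no result is drawn from that p. At SAH 7d the ratio of Nefh to Nefl spanned 0.0747 to 0.141 with a median of 0.122. Its mean was 0.16 above sham on the log2 scale.

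**Figure D4:**
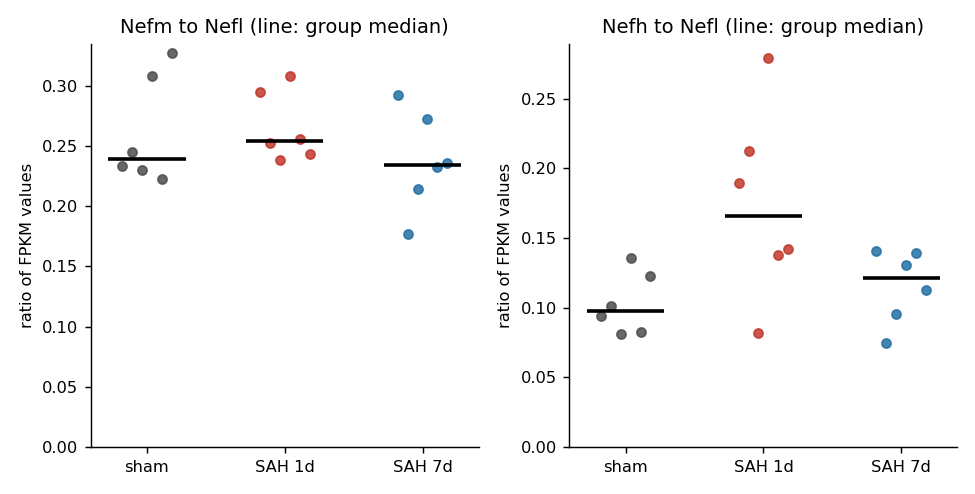
Ratio of the FPKM values of Nefm to Nefl and of Nefh to Nefl in each library, from 0, with bars at the group medians and 6 libraries per group. The SAH 1d values of Nefh to Nefl reach 0.279 while no sham library exceeds 0.136, and the groups overlap in both panels.

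At 7 days after SAH, the question was whether the levels still differed from sham. None of the 10 members changed in edgeR, and neither did any other gene, with 0.0% of all genes called and 15.4% at an unadjusted p under 0.05, among which were 0 members. DESeq2 called 2.49% of all genes and 0 members. For no member were all SAH 7d libraries on 1 side of all sham libraries, against 1.23% of all genes. Nefl had a lowest, median and highest level of 227, 939 and 1121 CPM in the SAH 7d group, and the log2 fold change against sham was -0.28 ± 0.29 (edgeR adjusted p = 0.596). Nefm had 47.7, 191 and 276 CPM and Nefh had 35.9, 111 and 166 CPM, with log2 fold changes of -0.40 and -0.13. For all 3 chains the lowest library was SAH 7d-5 each time.

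The same library was lowest for the microtubule genes. Map2 had 465, 1286 and 1388 CPM at SAH 7d, Mapt had 180.0, 429 and 462 CPM, and Tubb3 had 139, 356 and 400.2 CPM, with log2 fold changes against sham of -0.23, -0.16 and -0.27. Stmn2 had 224.5, 524 and 549.65 CPM and Gap43 had 134, 321 and 367 CPM, at -0.24 and -0.23. Sox11 had 1.88, 2.78 and 4.87 CPM, with a log2 fold change against sham of 0.38 ± 0.27. Sprr1a had 0.395, 0.883 and 3.72 CPM, the highest again in SAH 7d-5, and its log2 fold change of 0.43 ± 0.49 became -0.19 without that library. The adjusted p of the 10 genes ran from 0.474 for Sox11 to 0.832 for Nefh.

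SAH 7d-5 stood far from the other SAH 7d libraries. Its level was 0.232 of the median of the other 5 for Nefl, 0.228 for Nefm and 0.288 for Nefh, and 0.360 for Map2, 0.392 for Mapt and 0.381 for Tubb3. Stmn2 stood at 0.421 and Gap43 at 0.407, while Sprr1a was 4.86 times and Sox11 1.19 times the median of the others. The neuron markers had a median ratio of 0.362 in this library. Its summed marker levels were 3277 CPM for meningeal fibroblasts, where the sham libraries had 83.6 to 193, 2117 CPM for microglia and macrophages, where they had 163 to 297, and 131 CPM for neutrophils, where they had 0.132 to 3.12. Of the neutrophil sum, 129.8 CPM was Mmp8 alone, and none of the other 4 neutrophil markers, S100a8, S100a9, Mpo and Cxcr2, exceeded 0.70 CPM in any SAH 7d library. All 4 fibroblast and all 6 microglia and macrophage markers had a higher maximum at SAH 7d than in sham. The part of these markers in the levels of the members was not tested. Without SAH 7d-5, the log2 fold changes of the 8 abundant members against sham lay between -0.19 for Nefm and 0.05 for Nefh, with none of the 10 members changed and 0.0% of all genes called.

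Between SAH 7d and SAH 1d, the question was whether the members had come back up. None of the 10 changed in edgeR, against 1.37% of all genes, and 14.7% of all genes had an unadjusted p under 0.05. No member had groups that did not overlap, against 3.05% of all genes. Gap43 (unadjusted p = 0.0450, adjusted p = 0.325) and Sprr1a (unadjusted p = 0.0386, adjusted p = 0.305) had an unadjusted p under that value. The log2 fold changes were positive for 7 of the abundant members, from 0.15 for Map2 to 0.45 for Gap43. They were -0.20 for Nefh, -0.63 for Sox11 and -2.57 for Sprr1a, and the last became 0.17 without SAH 1d-3.

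The call depended on SAH 7d-5. Without it, 5 members rose from SAH 1d to SAH 7d, against 3.18% of all genes: Nefl by 0.56 on the log2 scale (edgeR adjusted p = 0.0124), Mapt by 0.48 (0.0211), Tubb3 by 0.57 (0.00275), Stmn2 by 0.50 (0.00281) and Gap43 by 0.60 (0.00852). For each of these 5, the other 5 SAH 7d libraries lay above all 6 SAH 1d libraries, which was so for 4.15% of all genes. SAH 7d-5 was singled out after its low levels of these same genes had been seen. The shares of all genes were not picked that way, so no result is drawn from the comparison with them. With 1 library left out, each of the 5 passed in only 1 of 12 fits, the one without SAH 7d-5. In voom with sample quality weights, 5 members rose as well, against 6.37% of all genes, and so did 5 when both SAH 7d-5 and SAH 1d-3 were left out, against 6.13%. Each time they were Nefl, Mapt, Tubb3, Stmn2 and Gap43. Sample quality weights count outlying libraries less, and the last fit left SAH 7d-5 out, so neither is separate from that exclusion. Without SAH 1d-3 alone, 0 of the 6 structural and 0 of the 4 growth and regeneration genes rose. Every group of libraries enters more than 1 of the 3 comparisons, so these are not independent.

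Other genes of the axon were read from lists. These were chosen with earlier results of these data known, so their shares beside those of all genes are a description. Of 29 further genes of the axon cytoskeleton, 12 fell, against 10.5% of all genes, and 0 rose, against 14.9%, at SAH 1d, with a median log2 fold change of -0.26. Tuba4a, an alpha-tubulin, fell by 1.03 (SE 0.11, edgeR adjusted p = 5.6e-05), Ank3, which organises the axon initial segment, by 0.50, and Tuba1b by 0.49. Of 19 growth cone proteins tested, 4 fell, against 10.5% of all genes, and 1 rose, against 14.9%, at SAH 1d. The 5 together are a share near the 25.4% of all genes that changed, so no result about the list is drawn. Tmsb10 was not tested. The median was -0.11. The 5 were the stathmins Stmn3 (-0.65) and Stmn1 (-0.56), the adhesion molecules L1cam (-0.63) and Nrcam (-0.39), and Pfn1, an actin-binding profilin, at 0.62. Without SAH 1d-3, 7 fell, against 13.0% of all genes in that fit, and 1 rose. None of either list was called at SAH 7d against sham, where 0.0% of all genes were called, so this is no result about the lists.

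The list of injury-induced regeneration genes, to which Sprr1a and Sox11 belong by function, moved in the opposite direction. Of its 28 tested genes, 17 rose, against 14.9% of all genes, and 1 fell, against 10.5%, at SAH 1d, and the median log2 fold change was 1.01. Csrp3 and Gfra1 were not tested. As the list was chosen with earlier results of these data known, its shares are a description and not a test of the list. Hspb1, a small heat shock protein that injured neurons and astrocytes make, had 2.58 to 7.69 CPM in the sham group and 110.0 to 336 CPM in the SAH 1d group, with no overlap and a log2 fold change of 5.28 ± 0.35 (edgeR adjusted p = 3.15e-06). Socs3, a brake on cytokine signalling, had 0.1985 to 1.00 CPM in sham and 5.10 to 60.7 CPM at SAH 1d. The cytokine genes Il6 and Lif had 0 to 0.207 and 0 to 0.265 CPM in sham and 0.392 to 43.3 and 0.769 to 28.2 CPM at SAH 1d, so that the size of their fold change rests on very few sham counts. Flrt3, a receptor of axon guidance, fell by 0.42. Jun and Atf3, named here for AP-1 and not by size, rose by 1.13 and 4.61. Without SAH 1d-3, 16 genes rose and 3 fell, the fallen against 13.0% of all genes in that fit, and the median was 0.81.

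Against SAH 1d, 5 of these 28 genes fell at SAH 7d, against 1.08% of all genes, and 0 rose. Hspb1 fell by 3.75 (SE 0.44, edgeR adjusted p = 0.00136), Rrad, a small GTPase, by 2.48, and Lif and Tnfrsf12a, the receptor of the cytokine TWEAK, by 5.99 and 2.98, and Smad1, named as the only other one, by 0.69. With 1 library left out, Tnfrsf12a missed the threshold in 10 and Lif in 6 of 12 fits. Without SAH 7d-5, 13 fell, against 5.19% of all genes, and 0 rose. None was called against sham at SAH 7d, but there 0.0% of all genes were called, so this does not show a return to the sham level. Many of these genes are also made by glia and immune cells, so that in bulk cortex the list does not report on neurons alone, and at SAH 1d neutrophil markers summed to 1.50 to 50.2 CPM, highest in SAH 1d-3.

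Genes that hold axon growth back or take part in axon loss included members that rose and members that fell. Of 16, 3 rose, near the 14.9% of all genes, and 5 fell, against 10.5%, at SAH 1d, with a median log2 fold change of -0.24. Epha4, a receptor of repulsive ephrins, fell by 0.74, and Rtn4r and Lingo1, which code for subunits of the Nogo receptor, fell by 0.73 and 0.54. Klf9 fell by 0.36, Klf4, a transcription factor that limits axon growth, rose by 1.24 and Rhoa, which collapses growth cones, rose by 0.34. Without SAH 1d-3, 3 rose and 9 fell, the fallen against 13.0% of all genes in that fit.

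The enzymes that act on tau and neurofilaments were the last list. Of 14 tested, with Ppp2ca left out by the filter, 3 rose, near the 14.9% of all genes, and 8 fell, against 10.5%, at SAH 1d, with a median log2 fold change of -0.30. The calpain genes Capn1 and Capn2, whose proteases cut neurofilaments and spectrin, rose by 0.58 and 0.50, and Csnk1d, a casein kinase, rose by 0.28. Cdk5r2, an activator of the tau kinase CDK5, fell by 0.61, Capn5 by 0.53 and Ppp2r2b, a regulatory subunit of the tau phosphatase PP2A, by 0.48. With 1 library left out, Stmn1, Flrt3, Klf9, Rhoa, Capn2 and Capn5 each missed the threshold in at least 1 of 12 fits, with a highest adjusted p of 0.0838 for Klf9 (edgeR).

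**Figure D5:**
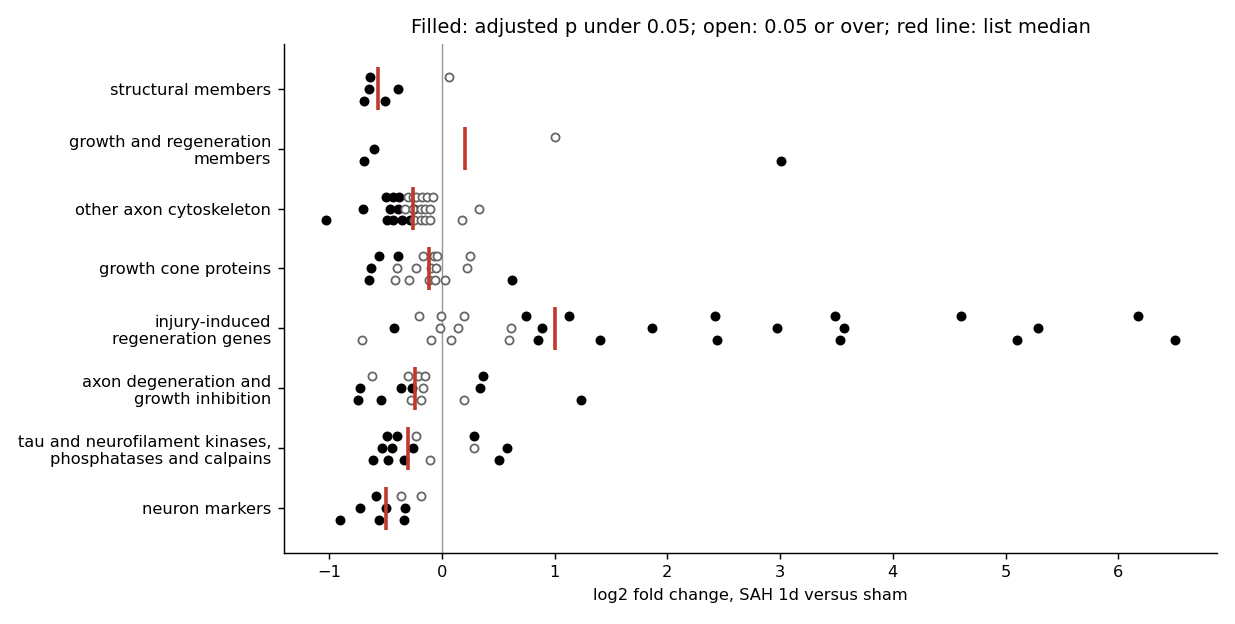
Log2 fold change at SAH 1d against sham of every tested gene of the lists and of the members themselves. Filled points have an edgeR adjusted p under 0.05, open points do not, and red lines are list medians. The medians are -0.57 for the structural genes, -0.26 for other axon cytoskeleton, 1.01 for the injury-induced regeneration genes and -0.49 for the neuron markers.

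Across the 18 libraries, the abundant members other than Nefh ran together, some pairs less closely than others. Pearson's r of log2 CPM was 0.970 between Tubb3 and Stmn2 and 0.938 between Nefl and Nefm. It stayed at 0.943 and 0.847 over the 16 libraries left when SAH 7d-5 and SAH 1d-3 were dropped. Between Nefm and Map2 it went from 0.791 to 0.483, and between Nefm and Gap43 from 0.693 to 0.458. Nefh had an r of 0.607 with Nefl, and of 0.128 over those 16. Sox11 and Sprr1a had an r of 0.587 over 18 libraries and of -0.296 over 16. Among 12936 genes with a symbol and a mean of at least 1 CPM, the pattern most like that of Nefl was Snap25 (r = 0.978), a synaptic protein and itself a neuron marker, followed by Tmem63c and Prmt8. For Nefm it was Glt1d1 (r = 0.962), then Sgtb and Kcnh7, and for Nefh it was Syt2, a synaptotagmin (r = 0.922), then Pex5l and Tigar. Map2 came closest to Abi2 (r = 0.954), Zdhhc2 and Mras, and Mapt to Atp6v1g2 (r = 0.984), Thy1 and Vsnl1. Wdr7 came first for both Tubb3 (r = 0.980) and Stmn2 (r = 0.978), followed by Bex3 and Stmn2 itself for Tubb3 and by Pja2 and Ywhab for Stmn2. Gap43 was most like Arf3 (r = 0.948), Scamp1 and Vdac3. Sox11 was most like Cd55 (r = 0.879), Klf5 and Kdm6b. Sprr1a was most like Phlda1, Zpr1 and Ipo5, where the r of 0.909 with Phlda1 became 0.590 over the 16 libraries. These values describe libraries that share groups and are given without a test.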

How the data were processed

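RNA sequencing libraries of rat cortex were grouped by the labels deposited with them. The authors aligned clean reads to Rnor_6.0, and the submitters' processing notes name fastp, HISAT2, DESeq2 1.16.1 and the mouse build mm9, which is at odds with the rat identifiers. The counting program is not given in the sources used here. The authors deposited whole-number counts, not normalized, and FPKM values scaled to transcript length and mapped reads. The files give no gene coordinates. Each library held 2.73e+07 to 3.83e+07 counts, and all errors given are between rats.

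Counts were tested with edgeR 4.0.16 in R 4.3.3 by the quasi-likelihood F test on the 12 libraries of a comparison, after filterByExpr on all 18 and TMM normalization. Alternatives were the median-of-ratios size factors, DESeq2 1.42.0, limma 3.58.1 voom, all libraries in 1 fit, a replicate block, other filters (none, or 10 counts in every library), limma on log2(FPKM + 1) and log2(FPKM + 0.1), and leaving libraries out. A minimum mean FPKM of 0.5 applied there. Log2 CPM used a prior count of 2. Scripts were tested on simulated data. Ratios were formed in Python 3.11.15.

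The members and lists were chosen with earlier results of these data known. Named were all members and, from each list and comparison, the 4 largest increases and decreases among changed genes, and for each member the 3 genes most like it. A few genes that this rule names are not reported here. Other named genes were chosen after their values were seen.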

Additional observations from a re-analysis of the deposited data

Results flagged for a closer look

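Within groups of 6 libraries, Dixon's ratio (the gap of an extreme library to its neighbour over the range of the group) was compared with 0.625 for the members' log2 CPM, the growth minus structural difference and the log2 ratios of Nefh and of Nefm to Nefl. Of 39 groups, 14 exceeded it. Chance flags about 1 in 20 independent groups, but these are not independent, since the members are correlated and 7 of the 14 come from SAH 7d-5 and 4 from SAH 1d-3.

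SAH 7d-5 was the low extreme of its group for Nefl (0.752), Map2 (0.793), Mapt (0.745), Tubb3 (0.782), Stmn2 (0.891) and Gap43 (0.814), and the high extreme for the growth minus structural difference (0.686). SAH 1d-3 was the low extreme of its group for Mapt (0.686) and the high extreme for Sox11 (0.706), Sprr1a (0.72) and the growth minus structural difference (0.67). In the sham group, sham-1 was low for Nefl (0.684) and Mapt (0.832), and sham-5 was high for Gap43 (0.708). In sham-1 the neuron markers summed to 6955 CPM, the lowest sham value, and the striatum markers to 1063 CPM and the oligodendrocyte markers to 17322 CPM, the highest values of any sham library, and their part in its low Nefl and Mapt was not tested.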

How the results depend on the processing

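At SAH 1d against sham, the 8 changed members of the main analysis became 4 with all 18 libraries in 1 fit (2462 genes in all against 4684) and 5 in each of 3 limma analyses of FPKM values, where the median of all genes was 0.11 on log2(FPKM + 0.1). They numbered 7 to 9 with 1 library left out. The growth minus structural difference ran from 0.26 to 0.77 with 1 library left out. Nefh had a log2 fold change of -0.14 to 0.18 with 1 library left out.

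At SAH 7d against sham no member changed under any alternative run. The log2 fold change of Nefh was 0.051 without both SAH 1d-3 and SAH 7d-5 and ran from -0.29 to 0.051 with 1 library left out. That of Sprr1a was -0.20 in voom, -0.19 without both libraries and -0.19 to 0.70 with 1 left out. Over all genes, 459 were called by DESeq2, 2 by voom, 9 with all 18 libraries in 1 fit and 0 to 3 with 1 library left out. At SAH 7d against SAH 1d, the 0 changed members became 5 in voom, without SAH 7d-5 and without both libraries, and the 252 changed genes became 1012 by DESeq2, 2718 in voom, 779 with all 18 libraries, 414, 420 and 393 on FPKM, 2512 without both libraries and 102 to 1545 with 1 left out. The log2 fold change of Nefm was -0.014 on log2(FPKM + 1), with or without a filter, and -0.020 on log2(FPKM + 0.1), and that of Sprr1a ran from -3.21 to 0.17 with 1 library left out, the last without SAH 1d-3. The growth minus structural difference was -0.28, and 0.06 without SAH 1d-3.

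The replicate numbers pair no rats in the labels, and deviations of same-numbered libraries correlated at -0.252 to 0.197. With the number as a block, 7 members and 3979 genes changed at SAH 1d against sham and 29 genes at SAH 7d against SAH 1d. A library was most like its own number in 2 of 18 cases. The cause of these shifts was not tested.

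The 7 members that fell at SAH 1d had a negative log2 fold change under all alternatives run. Sox11 and Sprr1a rest on few counts. For the abundant members the standard error was 0.096 to 0.23 at SAH 1d against sham and 0.19 to 0.34 at SAH 7d against sham, with SAH 7d-5 in the group.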
